A study of Mus musculus with 8 samples.

Results

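The cells described here are neurons of the embryonic mouse cortex that carried transcripts of Lhx6, the LIM homeobox gene that marks inhibitory interneurons born in the medial ganglionic eminence of the ventral forebrain. A cell barcode was a member when it had at least 1 unique molecular identifier (UMI, a tag that counts 1 captured transcript) of Lhx6, at least 1 UMI among Gad1, Gad2 and Dlx6os1, and at most 3 UMIs of Ccnd2, a cyclin of dividing progenitors. Cells were barcodes of 2300 UMIs or more, 800 genes or more and no more than 10% mitochondrial UMIs, and 625 of 15547 met the rule. They were 464 of 7233 wild type cells and 161 of 8314 cells of the ShhN group.

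Cortices of CD1 embryos were taken at embryonic day 16.5 (E16.5). The control group was 4 samples of wild type littermates, and the labels do not say whether these had been electroporated with another plasmid. The other group was 4 samples of cortex that had received a ShhN plasmid by in utero electroporation at E13.5. This method pushes DNA into progenitors that line the ventricle. The plasmid encodes ShhN, the secreted signalling piece of the morphogen sonic hedgehog (SHH). The series title asks how SHH directs the lineages of cortical stem cells. The labels do not name the promoter of the plasmid. Each group came as 1 matrix with 1 barcode suffix for all its cells, which leaves no way to assign a cell to a sample, and each group was therefore 1 library. No test between groups was possible, and the exact 95% intervals given in square brackets cover counting error only. Those of gene ratios count UMIs and leave out the spread between cells.

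Interneurons of the cortex are not made in the cortex. Those of the medial eminence turn on Nkx2-1 as progenitors and keep Lhx6 as they migrate tangentially, guided by chemokine, neuregulin, semaphorin and ephrin signals, and they later become the somatostatin (Sst) and parvalbumin (Pvalb) classes. Those of the caudal eminence lack Lhx6 and later become classes that express Htr3a, Vip or Reln.

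The wild type and ShhN libraries held 63760199 and 69470062 UMIs, of which 78.7% and 87.5% lay in cells, with medians of 6385 and 6758.5 UMIs per cell. The libraries shared 79 cell barcodes, or 1.09% of wild type and 0.950% of ShhN barcodes. Members were shallower than the whole, with a median of 3807.5 UMIs (2341 to 36376) and 1722.5 genes among wild type cells, and 4103 UMIs (2446 to 16940) and 1807 genes among ShhN cells. Their mitochondrial share had a median of 3.93% and 4.16%.

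The values that chose the members are a description only. Lhx6 (chromosome 2, 36081953 to 36105408, GRCm38, minus strand) held 975 UMIs among wild type and 341 among ShhN members, or 432 and 420 CPM of the members' summed UMIs. Many members stood at the limit of the gate: 198 of 464 and 68 of 161 had exactly 1 Lhx6 UMI, and 131 and 54 had exactly 1 UMI of Gad1, Gad2 or Dlx6os1. Just outside lay 154 wild type and 78 ShhN cells with Lhx6 but none of those 3 transcripts. Ccnd2 was at 0 UMIs in 430 and 141 members and at the limit of 3 UMIs in 2 and 2, while 8 and 5 cells with Lhx6 lay above the limit with 4 or more.

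Markers that the rule did not use were read to check the label. Maf and Nxph1, which medial interneurons express after leaving the cycle, were detected in 405 and 362 of the 464 wild type members and in 149 and 131 of the 161 ShhN members. Sst, the peptide of a main medial class, was detected in 175 and 80. At least 1 of the 3 was found in all but 8 wild type and 2 ShhN members. Nkx2-1, the medial progenitor gene, had 8 and 1 UMIs, and Lhx8, Gbx1, Gbx2, Isl1, Pvalb and Th had none in either library. Of the caudal genes, Htr3a had 14 and 0 UMIs, Prox1 24 and 5, and Sp8 3 and 3. Nr2f2 had 107 and 51, and Npas1, which is shared between eminences, had 240 and 185. All 11 listed caudal genes together had 1287 and 532 UMIs, so transcripts of this list were not absent from members.

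Members made up a smaller share of the ShhN library. The wild type share was 6.42% [5.86, 7.004] and the ShhN share 1.94% [1.65, 2.26], which gives a ratio of 0.302 [0.251, 0.362]. Measured against excitatory neurons alone, taken as cells with at least 3 UMIs of Neurod2 plus Neurod6 and none of Lhx6, Gad1, Gad2 or Dlx6os1, the ratio was 0.290 [0.241, 0.348]. The share of excitatory neurons itself was 78.6% and 81.8%. Leaving all cells with a Mki67 or Top2a UMI out of both counts gave 0.326 [0.269, 0.393].

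Interneurons of the other gate were also a smaller share. Cells with Htr3a or Npas1 but no Lhx6, under otherwise the same rule, numbered 175 and 46. That is 2.42% [2.08, 2.80] and 0.553% [0.405, 0.737], a ratio of 0.229 [0.162, 0.318] whose interval overlaps that of the Lhx6 cells. The opposite held for cells with at least 3 UMIs of Dlx1, Dlx2, Dlx5 and Dlx6os1, no Lhx6 and at least 4 Ccnd2 UMIs, with 19 wild type and 364 ShhN cells (0.263% and 4.38%, a ratio of 16.7 [10.5, 28.0]). In those 364 ShhN cells Maf had 7 UMIs, Nxph1 6 and Sst 14. The Lhx6 cells above the Ccnd2 limit, 8 and 5, had a ratio of 0.544 [0.140, 1.89].

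**Figure D1:**
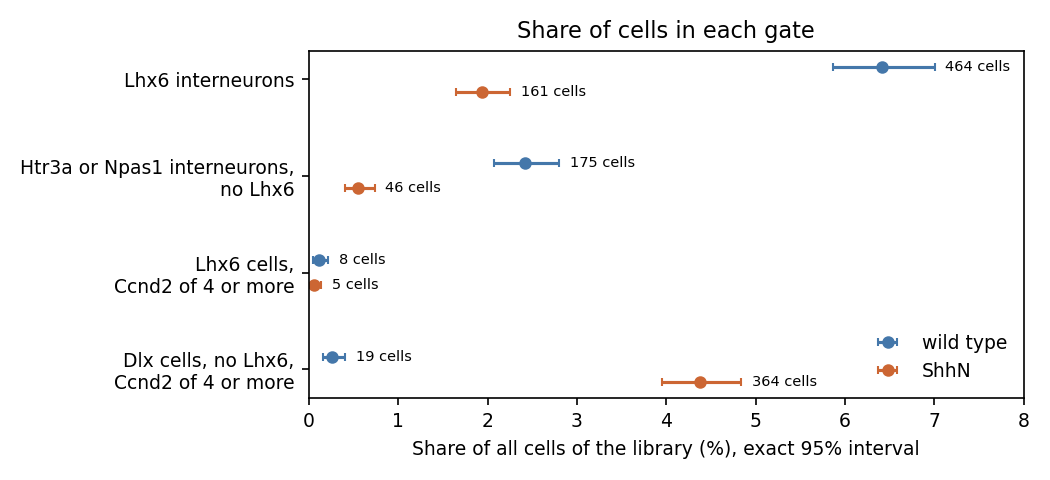
Share of all cells of each library (x axis, %) in each gate (y axis), for wild type (blue) and ShhN (orange), with exact 95% intervals as bars and the cell number beside each point. Lhx6 interneurons stood at 6.42% and 1.94%, and Dlx cells with high Ccnd2 at 0.263% and 4.38%.

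For shares of members with a transcript, every member was thinned at random to 2300 UMIs, which left none out, and excitatory neurons thinned the same way gave the background. Excitatory neurons were deeper before thinning, with medians of 6674 and 6854 UMIs. They were chosen to have no UMI of Lhx6, Gad1, Gad2 or Dlx6os1. That leaves out cells that took up these interneuron transcripts, so the background can be too low. Maf was seen in 72.6% [68.3, 76.6] of the wild type members and in 77.6% [70.4, 83.8] of those in the ShhN library, against 0.422% and 0.176% of excitatory neurons. Nxph1 was seen in 61.9% [57.3, 66.3] and 62.1% [54.1, 69.6] of members. Neither was confined to members. In the Htr3a or Npas1 cells without Lhx6, Maf was seen in 34.9% and 47.8% and Nxph1 in 13.1% and 19.6%. The summed levels in members also lay close between libraries, with log2 ratios of ShhN over wild type of 0.11 [-0.04, 0.25] for Maf and 0.00 [-0.19, 0.18] for Nxph1.

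Sst (chromosome 16, 23889573 to 23890958, minus strand) was at 1430 UMIs or 634 CPM in wild type members and at 844 UMIs or 1040 CPM in ShhN members, a log2 ratio of 0.71 [0.59, 0.84]. Among members with at least 2 Lhx6 UMIs the ratio was -0.02, so the difference in level was not seen there, and at equal depth 35.3% and 40.9% of them had a Sst UMI. Over all members, Sst was seen at equal depth in 31.9% [27.7, 36.4] and 42.9% [35.1, 50.9], and before thinning in 37.7% and 49.7%. The intervals at equal depth overlap, which does not show that the shares are equal. The background of Sst in excitatory neurons at that depth was 0.844% and 0.514%. Thinning to 4500 UMIs instead left 124 wild type and 63 ShhN members. Of these, 41.9% [33.1, 51.1] and 68.3% [55.3, 79.4] had a Sst UMI, intervals that do not overlap. Among members with any Sst UMI the log2 ratio was 0.14. Members with at least 10 Sst UMIs were 50 of 464 and 29 of 161, and the highest single cells had 85 and 79.

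Of all cells with at least 3 Sst UMIs, 113 of 169 wild type and 57 of 91 ShhN cells were members. Reln, the secreted guidance protein that part of the Sst class also makes, was at 108 and 164 CPM (0.60 [0.29, 0.92]) and was seen in 12.5% and 24.2%. Satb1, which Sst cells need to mature, was at 225 and 325 CPM (0.53 [0.31, 0.75]). None of these reached the size rule given next.

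**Figure D2:**
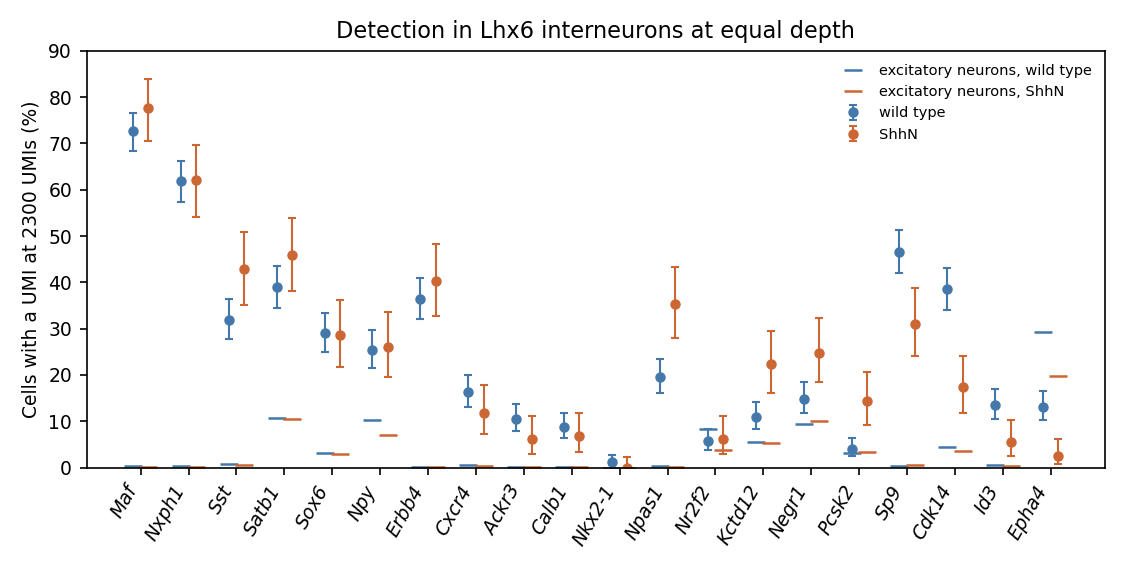
Share of Lhx6 interneurons with at least 1 UMI of each gene (y axis, %) after thinning every cell to 2300 UMIs, for wild type (blue) and ShhN (orange), with exact 95% intervals; short dashes give the same share in excitatory neurons. Maf stood at 72.6% and 77.6%, Nxph1 at 61.9% and 62.1%, Npas1 stood at 19.6% and 35.4%, and Sp9 at 46.6% and 31.1%.

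Genes were then compared across the members as a whole, on UMIs summed over members and divided by each library's member total of 2256085 and 811910 UMIs. A gene counted as higher or lower when its 2 sums came to 50 UMIs or more, its log2 ratio was 1 or more away from 0, and the whole interval lay 0.5 or more away from 0 on that side. By this size rule, 9 of 6308 measured genes were higher (0.143%) and 25 lower (0.396%) in ShhN members, and the median log2 ratio of all measured genes was -0.04. The rule is a description of 2 libraries and not a test.

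All 9 higher genes were named by the rule. Npas1 (chromosome 7, 16455721 to 16477728, minus strand), a transcription factor of interneurons from both eminences, had 240 UMIs in 127 wild type cells and 185 UMIs in 75 ShhN cells, a log2 ratio of 1.10 [0.81, 1.38]. At equal depth it was seen in 19.6% [16.1, 23.5] and 35.4% [28.0, 43.3] of members, with a background of 0.299% and 0.147% in excitatory neurons (27.4% and 46.6% of members before thinning). Pcsk2 (chromosome 2, 143546156 to 143816285), a convertase that cleaves neuropeptide precursors, had 47 UMIs in 35 cells and 56 UMIs in 42 cells (1.73 [1.14, 2.32]). No cell held more than 8 UMIs of Npas1 or 6 of Pcsk2.

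Kctd12 (chromosome 14, 102976581 to 102982637), an auxiliary subunit of GABA-B receptors, had 108 and 92 UMIs (1.24 [0.83, 1.66]) and was seen in 11.0% and 22.4% of thinned members. Negr1 (chromosome 3, 156561794 to 157316445), a cell adhesion molecule of neurons, had 193 and 146 UMIs (1.07 [0.75, 1.39]). Sema3a (chromosome 5, 13125414 to 13602565), a secreted repellent for migrating interneurons and axons, had 46 and 44 UMIs (1.41 [0.78, 2.04]). The other 4 were Ncald, a neuronal calcium sensor (1.29), Fhl1 (1.26), Lrrtm1, a synaptic adhesion protein (1.16), and the protein kinase gene Prkce (1.05).

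Of the 25 lower genes 12 were named. Sp9 (chromosome 2, 73271925 to 73284706), a zinc finger factor of ventral forebrain progenitors and newborn interneurons, had 686 UMIs in 287 wild type cells and 120 UMIs in 70 ShhN cells (-1.04 [-1.33, -0.76]). At equal depth it was seen in 46.6% [41.9, 51.2] and 31.1% [24.0, 38.8] of members, against 0.352% and 0.514% of excitatory neurons (61.9% and 43.5% of members before thinning). Cdk14 (chromosome 5, 4803391 to 5420312, minus strand), a cyclin-dependent kinase of the WNT pathway, had 415 and 69 UMIs (-1.11 [-1.50, -0.74]). It was seen in 38.6% and 17.4% of thinned members, and it was the only one of the 21 named genes that stayed past the size rule in all 12 alternatives tried for these genes.

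Id3 (chromosome 4, 136143497 to 136145755), an inhibitor of helix-loop-helix factors that BMP signals induce, had 124 UMIs in 88 cells and 12 UMIs in 10 cells (-1.89 [-2.89, -1.04]). Epha4 (chromosome 1, 77367185 to 77515088, minus strand), an ephrin receptor of migrating neurons, had 227 UMIs in 100 cells and 32 UMIs in 14 cells (-1.35 [-1.93, -0.81]), of which 14 ShhN UMIs came from a single cell. Vim, the intermediate filament of progenitors, had 137 and 15 UMIs (-1.72 [-2.59, -0.94]), with 31 of the wild type UMIs in 1 cell. The growth factor gene Mdk (-1.34), the semaphorin receptors Nrp1 (-1.05) and Nrp2 (-1.81), the activity-regulated neuritin gene Nrn1 (-1.96), Ppp1r13b (-2.53), Ftsj3 (-3.17) and Eomes, the regulator of excitatory progenitors (54 and 1 UMIs, -4.28), completed the 12 named.

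A stricter gate changed several of these values. Among members with at least 2 Lhx6 UMIs, Vim stood at -0.39, Epha4 at -0.53, Nrp1 at -0.54, Mdk at -0.80 and Npas1 at 0.94, and none of these 5 was past the rule. In all, 13 named genes with a finite ratio were not past it there, and Ppp1r13b had no finite ratio. Of those 13, Eomes (-2.77), Ftsj3 (-3.20), Nrp2 (-1.96), Nrn1 (-1.90), Ncald (1.51) and Fhl1 (1.12) still lay more than 1 away from 0. Still past the rule were Cdk14 (-1.38), Id3 (-1.87), Sp9 (-1.31), Kctd12 (1.27), Negr1 (1.36), Pcsk2 (1.44) and Sema3a (1.27). With marked doublets removed 9 named genes were no longer past the rule. They were Nrn1 (-0.75), Mdk (-0.76), Nrp1 (-0.74), Npas1 (0.999), Vim (-1.28), Fhl1 (1.16), Eomes (-3.61), Ftsj3 (-2.88) and Ppp1r13b (-2.41). With no limit on Ccnd2 4 were not past it, among them Eomes (-0.52) and Sp9 (-0.98). At equal depth 15 with a finite ratio were not past it, among them Sema3a (0.69).

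Of the 13 lower genes outside the naming rule, 4 were globins, which red blood cells make. Hba-a1 had 8657 and 191 UMIs in members, and 1 wild type cell held 2876 of them. Only 4 wild type members had at least 100 globin UMIs, and the medians were 5 and 3 UMIs per member. Hba-a2 had 52 and 0 UMIs, at least 6.24-fold lower against a floor of 3 counts over the ShhN members. Globins were present in the free RNA of both libraries (barcodes with 1 to 50 UMIs), Hba-a1 at 9889 and 6253 CPM. Without those 4 members the counts were 9 genes higher and 22 lower.

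A minority of members also carried transcripts of excitatory neurons, so each named gene was read without them. Members with at least 3 Neurod2 plus Neurod6 UMIs were 72 of 464 wild type (15.5% [12.3, 19.1]) and 19 of 161 ShhN members (11.8% [7.26, 17.8]). They had medians of 9324 and 11595 UMIs, against 3687.5 and 4026 in the other members. A doublet caller, scrublet, marked 43 of those 72 and 5 of those 19, and only 1 and 0 of all other members. The free RNA of the libraries also held Neurod6 at 1391 and 1484 CPM, and how much of it these cells took up was not tested.

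Without these cells 12 of 5157 measured genes were higher (0.233%) and 18 lower (0.349%), and 7 of the 9 higher genes stayed past the rule. The other 2, Negr1 (0.996) and Fhl1 (1.04), did not. Of the 12 named lower genes 5 stayed past it, namely Epha4 (106 and 7 UMIs, -2.54 [-3.89, -1.45]), Vim (-2.21), Id3 (-1.68), Cdk14 (-1.12) and Sp9 (-1.01). Nrp1 did not (-0.83): 323 of its 443 wild type UMIs lay in the 72 cells. Eomes had 36 of its 54 wild type UMIs there and 18 and 0 elsewhere, and Nrn1 had 41 of 54, so most wild type UMIs of these 3 genes lay in cells with both kinds of transcript.

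**Figure D3:**
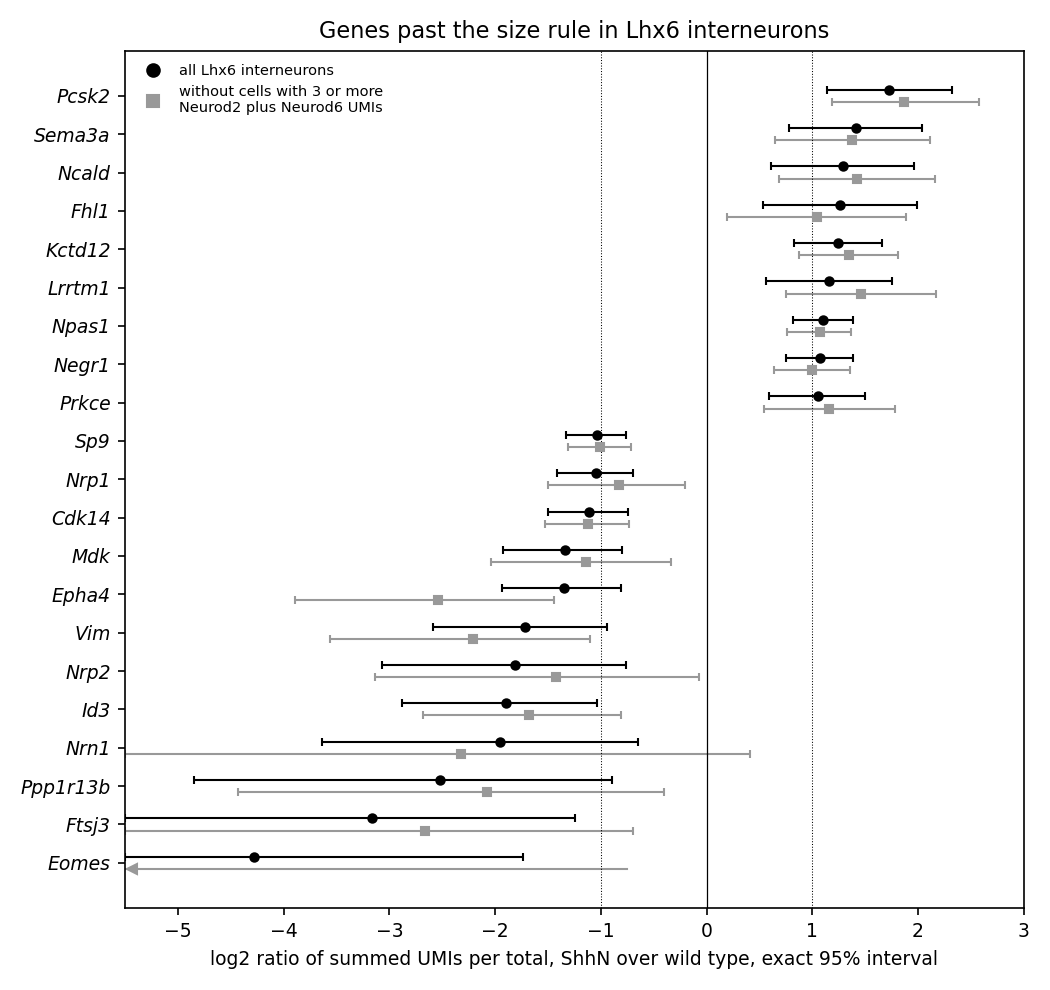
Log2 ratio of ShhN over wild type (x axis) for the 21 named genes past the size rule (y axis), in all Lhx6 interneurons (black circles) and without the cells with 3 or more Neurod2 plus Neurod6 UMIs (grey squares), with exact 95% intervals cut at the axis limit. Dotted lines mark -1 and 1, and the arrow marks Eomes, which had 0 ShhN UMIs outside those cells; Epha4 lay farther from 0 without those cells (-2.54) than with them (-1.35).

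The same genes were then read in Lhx6 cells split by Sst. They were chosen on these same members, which the 2 groups divide between them, so the signs and medians that follow are a description and no support. All 9 higher genes had positive and all 12 lower genes negative log2 ratios both among members with a Sst UMI (175 and 80 cells) and among those without (289 and 81 cells). The medians were 1.32 and 1.08 for the higher genes, and -1.69 and -1.42 for the lower ones. Npas1 stood at 0.91 with Sst and 1.11 without, Cdk14 at -1.30 and -0.81, and Sp9 at -1.53 and -0.54. Past the rule were 3 of the 9 and 3 of the 12 among cells with Sst, where 4 of 3891 genes were higher (0.103%) and 11 lower (0.283%). Among cells without Sst they were 2 and 3, where 11 of 4603 were higher (0.239%) and 21 lower (0.456%). Fhl1 stood at 1.48 with Sst and 0.09 without and Sema3a at 1.32 and 0.25, distances that were not tested.

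The same sums were made in other cells. In the Htr3a or Npas1 interneurons 9 of 3311 measured genes were higher (0.272%) and 12 lower (0.362%). Kctd12 (1.28 [0.58, 1.97]) was higher and Epha4 (94 and 5 UMIs, -2.24 [-3.90, -0.97]) and Vim (59 and 3 UMIs, -2.31) were lower under both gates. The 2 gates need not hold separate kinds of interneuron, since Npas1 is shared between eminences. Npas1 was found in 78.9% and 93.5% of the Htr3a or Npas1 cells, and Htr3a in 47.4% and 26.1%. How many of them were Lhx6 cells with no captured Lhx6 UMI was not tested. Sst, at 160 and 457 CPM, was past the rule as higher in the Htr3a or Npas1 cells (137 and 98 UMIs, 1.51 [1.12, 1.89]), where it was found in 9.14% and 21.7% of cells. Negr1 stood at -0.40 there and Npas1, which that gate uses, at 0.24. In excitatory neurons 253 of 12414 genes were higher (2.04%) and 163 lower (1.31%). None of the 9 genes higher in Lhx6 cells was among the 253, which for so few genes is near the share of 2.04%. Their median log2 ratio there was -0.18. Of the 12 lower genes Nrp2 alone was past the rule there (-1.85). These are different totals of UMIs, and no difference between cell kinds was tested.

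Medial transcription factors were read as a list. Of 16 genes 9 were measured besides Lhx6 itself, 0 were higher and 0 lower. Over all measured genes 0.143% were higher and 0.396% lower. A count of 0 in lists this short, here and below, is near those shares and is no result about the list. The median log2 ratio was 0.11 beside -0.04 over all measured genes. Sox6, which places medial interneurons in their layers, was at 141 and 129 CPM (-0.13 [-0.46, 0.19]), Mef2c at 1786 and 1953 CPM (0.13 [0.04, 0.21]) and Zeb2 at 836 and 791 CPM (-0.08 [-0.21, 0.05]). Of 19 subtype genes 8 were measured and none passed the rule, with a median of 0.28. The peptide Npy was at 322 and 365 CPM (0.18 [-0.02, 0.38]), the calcium buffer Calb1 at 52.3 and 45.6 CPM (-0.20 [-0.77, 0.34]) and Nxph2 at 97.1 and 124 CPM (0.36 [0.00, 0.70]).

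Of the caudal list 4 of 11 genes were measured, and Npas1 alone was higher. Nr2f2, the orphan receptor of the caudal eminence, was at 47.4 and 62.8 CPM (0.41 [-0.11, 0.90]), and at equal depth it was seen in 5.82% and 6.21% of members and in 8.42% and 3.73% of excitatory neurons. Of the lateral eminence, olfactory bulb and striatal list 5 of 16 were measured, Sp9 was lower and the median was -0.61. The others included Foxp1 (-0.61 [-1.25, -0.02]), Meis2 (-0.45 [-0.77, -0.13]) and Tshz1 (-0.70 [-1.21, -0.23]). Sp9 was plentiful in the ShhN Dlx cells with high Ccnd2, at 510 CPM, while ShhN members had 148 CPM.

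Genes of GABA handling and the Dlx family, the homeobox genes that set the interneuron fate, had a median of -0.30 over 7 measured genes, with 0 past the rule. Dlx2 was at 336 and 240 CPM (-0.48 [-0.72, -0.25]), Dlx5 at 208 and 153 CPM (-0.45 [-0.75, -0.16]) and Dlx1 at 228 and 185 CPM (-0.30 [-0.57, -0.04]). Dlx6 was at 31.9 and 17.2 CPM (-0.89 [-1.83, -0.05]). Slc32a1, the vesicular GABA transporter, stood at 109 and 108 CPM (0.00 [-0.37, 0.35]). All 4 Dlx intervals lay below 0, and none of the 4 ratios reached 1 in size.

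Migration genes went both ways. Of 26 genes 21 were measured, with Sema3a higher, Nrp1, Nrp2 and Epha4 lower and a median of -0.15, beside 0.143% higher and 0.396% lower over all measured genes. Without the cells with Neurod2 or Neurod6 17 were measured, with Sema3a higher and Epha4 alone lower, while Nrp1 stood at -0.83 and Nrp2 at -1.43. The neuropilins bind class 3 semaphorins such as Sema3a. The chemokine receptor pair Cxcr4 and Ackr3, which keep interneurons in their streams, were at 64.3 and 49.3 CPM (-0.38 [-0.93, 0.13]) and at 44.3 and 30.8 CPM (-0.53 [-1.22, 0.12]). Erbb4, the neuregulin receptor, was at 174 and 163 CPM (-0.10 [-0.39, 0.19]), Epha5 at 960 and 687 CPM (-0.48 [-0.62, -0.35]) and Dcx at 934 and 920 CPM (-0.02 [-0.14, 0.10]).

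Genes of excitability and synapses had a median of -0.01 over 27 measured of 34, with 0 past the rule. The growth protein genes Stmn2 (0.38 [0.30, 0.46]) and Gap43 (0.36 [0.17, 0.56]) and the release gene Snap25 (0.34 [0.09, 0.58]) had intervals above 0. The GABA-A receptor subunit Gabra2 had an interval below it (-0.84 [-1.38, -0.34]). Cacna2d2, a calcium channel subunit, stood at 0.90 [0.32, 1.47], and without the cells with Neurod2 or Neurod6 it passed the rule at 1.15. All 13 immature neuron genes besides Ccnd2 were measured, with none past the rule and a median of -0.02, with Sox4 at -0.31 [-0.38, -0.24] and Sox11 at -0.06 [-0.11, -0.01]. None of 8 measured immediate early genes passed the rule (median -0.07), with Jun at 0.52 [0.30, 0.74] and Egr1 at -1.02 [-1.69, -0.42].

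Transcripts of the SHH pathway were few in these cells. Ptch1, receptor and target of the signal, had 11 and 8 UMIs (1.01 [-0.50, 2.46]) and was seen in 1.08% and 1.86% of thinned members (2.37% and 4.97% before). Gli1 had 0 and 1 UMIs and Hhip 0 and 1, so no fold is given, and a count of 0 allows up to 0.647% of wild type members with a UMI. Of the 11 targets only Mycn (0.28) and Bcl2 (-0.18) were measured beside Ccnd2, and of the 11 receptors and mediators none was. Smo, which passes the signal on, had 37 and 4 UMIs (-1.74), under the 50 UMIs asked for. In the excitatory neurons Ptch1 had 199 and 807 UMIs (1.72), and the ShhN Dlx cells with high Ccnd2 held 446 UMIs of Ptch1, or 151 CPM. At the depth of the members a difference of that size in Ptch1 lies inside the interval.

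Shh itself (chromosome 5, 28456815 to 28467256, minus strand) had 0 UMIs in 464 wild type members and 34 UMIs in 5 of 161 ShhN members (3.11% [1.02, 7.10]). That is at least 31.5-fold higher against a floor of 3 counts over the wild type members, but 28 of the 34 UMIs lay in 1 cell and 31 in cells with Neurod2 or Neurod6. Over all ShhN cells 607 of 8314 (7.30% [6.75, 7.88]) had a Shh UMI. The ShhN free RNA held Shh at 116 CPM, above the 41.9 CPM of the members.

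Few members carried transcripts of dividing cells. Mki67 or Top2a was found in 7 of 464 (1.51% [0.609, 3.08]) wild type and 10 of 161 (6.21% [3.02, 11.1]) ShhN members, with Top2a at 18 and 15 UMIs in all. The free RNA held Top2a at 12.3 and 85.6 CPM, and its part in these counts was not tested. S phase genes had a median of -0.09 over 7 measured of 17, with none past the rule, and neither of 2 measured G2 and M phase genes passed it.

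Markers of other cell types were at low levels, with the exceptions already named. Summed over the list, oligodendrocyte lineage markers were at 16.8 and 17.2 CPM, vascular markers at 9.75 and 4.93 CPM and microglia markers at 1.77 and 2.46 CPM, each with at least 3 genes at 0 in each library. Cajal-Retzius markers were at 169 and 225 CPM, with neither of 2 measured genes past the rule. Radial glia markers were at 410 and 287 CPM, with Vim and Dbi lower among 4 measured and a median of -1.07, and excitatory progenitor markers at 106 and 62.8 CPM with Eomes lower among 3. Excitatory neuron markers were at 1031 and 839 CPM, with Nrn1 lower among 10 and a median of -0.55. Outside the cells with Neurod2 or Neurod6 the excitatory sums were 505 and 396 CPM and the radial glia sums 412 and 289 CPM. What part these transcripts had in the lower genes above, beyond the values without those cells, was not tested.

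Within the Lhx6 cells, other genes also differed between cells with and without a Sst UMI. Genes were chosen on the wild type library, by the size rule on members with over members without a Sst UMI, and then read in the ShhN library, which the choice had not used. In the wild type 15 of 5402 measured genes were higher with Sst (0.278%) and 6 lower (0.111%). In ShhN members 12 of the 15 and 4 of the 6 had the same sign, and the medians went from 1.30 to 0.46 and from -1.41 to -0.85. Genes chosen for large ratios in 1 library tend to have smaller ones in another, so this shift is no result about ShhN cells. On its own, the ShhN library had 13 of 2558 genes higher (0.508%) and 6 lower (0.235%). Past the rule in both libraries were 3 genes, which were Npy, Elfn1 and Ppp1r14c. The ShhN groups were smaller, with 80 cells with and 81 without Sst. At medians of 4025 and 3745 UMIs, wild type members with Sst were deeper than those without, as were ShhN members (4595.5 and 3890). Members with at least 3 Neurod2 plus Neurod6 UMIs made up 18.3% with and 13.8% without Sst in the wild type. In the ShhN library they made up 16.25% and 7.41%. With doublets removed 28 wild type genes were past the rule and after thinning 9, of which 16 and 4 were among those first chosen.

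Npy (chromosome 6, 49822710 to 49829507) encodes a peptide that many Sst cells also make. With and without Sst it was at 653 and 112 CPM in the wild type (2.55 [2.29, 2.82]) and at 553 and 105 CPM in ShhN members (2.39 [1.89, 2.94]). At equal depth it was seen in 41.9% of wild type members with Sst and 17.7% of those without, and in 43.5% and 13.04% in the ShhN library. Elfn1 (chromosome 5, 139907943 to 139974722), a synaptic protein typical of Sst cells, had 1.201 [0.72, 1.70] and 1.96 [1.02, 3.04], and Ppp1r14c 1.22 [0.77, 1.68] and 1.30 [0.68, 1.97].

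The kainate receptor partner Neto1 had 1.38 and 1.199. Ube2c, a gene of mitosis, had the highest wild type value (3.38) but rested on few cells, since 50 of its 61 wild type UMIs lay in 1 cell, and it stood at 0.54 in ShhN members. On the lower side, Id3 was at -1.12 and -2.78 and Efcab6 at -1.53 and -2.63, while Tshz1, a factor of lateral eminence lineages, was at -1.04 in the wild type and 0.21 in ShhN members. Yipf1 (-1.58 and 0.07) was the other lower gene with the opposite sign.

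**Figure D4:**
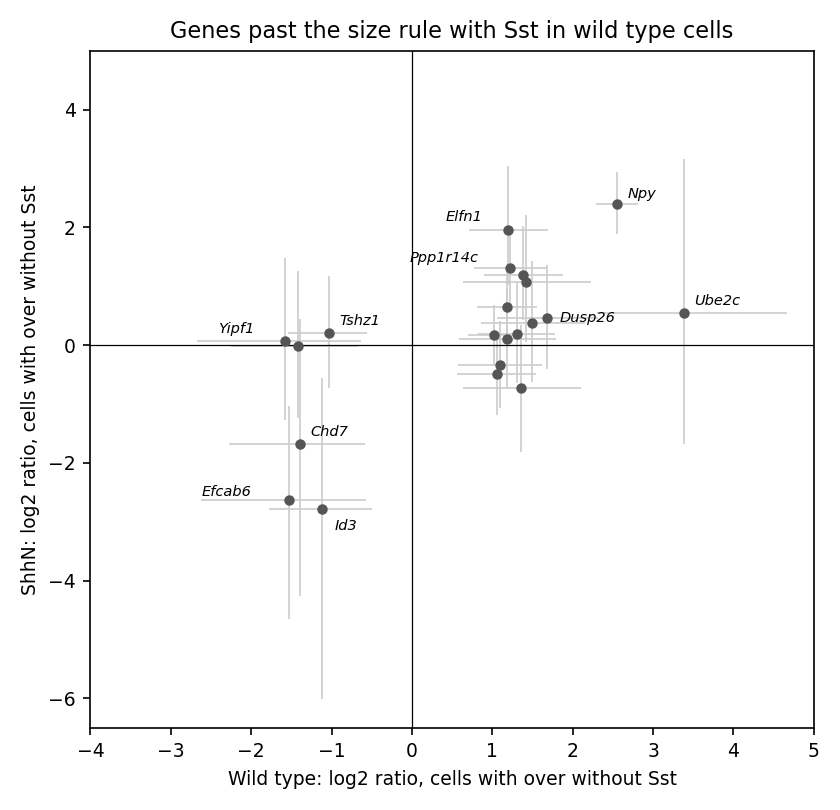
Log2 ratio of members with over members without a Sst UMI, for wild type cells (x axis) and ShhN cells (y axis), for the 21 genes chosen on the wild type values, with exact 95% intervals in grey. Npy lay near 2.5 in both, most other genes past the rule on the right lay closer to 0 in the ShhN library, and Ube2c had 3.38 and 0.54. Choosing genes on wild type values favours smaller ratios in the ShhN library.

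Transcripts of Npas1 and Sst were found together as well as apart. Among thinned wild type members Npas1 was seen in 27.0% [20.1, 34.9] of those with Sst and 16.1% [12.3, 20.7] of those without, and among ShhN members in 39.1% [27.6, 51.6] and 32.6% [23.2, 43.2]. Sp9 was seen at 34.5% with and 52.2% without in the wild type and 21.7% and 38.0% in ShhN members. Maf was seen at 70.3% and 73.7% in the wild type and 75.4% and 79.3% in ShhN members.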

How the data were processed

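The files hold UMI counts per gene and droplet barcode that the authors deposited without normalization, 1 matrix per group with 27998 genes and 737280 barcodes. The tools Cell Ranger, StringTie and Seurat 3 and the build mm10 are listed, without their roles, per the submitters' processing notes. The prefix for control was read as wild type and that for experimental as ShhN. The members, 21 gene lists and comparisons were chosen with earlier results of these data known, and nothing here is independent support for them. Doublets (scrublet of scanpy 1.11.5, expected rate 6%) were kept in the main values. Shares carry Clopper-Pearson, CPM Poisson and ratios conditional binomial intervals at 95%. A count of 0 was limited at 3 counts. The CPM and gene ratio intervals treat every UMI as independent. They leave out the spread between cells and are too narrow where a few cells hold many UMIs of a gene. Named genes were the 12 highest and 12 lowest past the size rule by the bound nearest 0, without globins, mitochondrial, Xist, Y-linked, unnamed and gate genes (only 9 were higher), the 8 highest and lowest of the Sst split, and list members. Coordinates are from GENCODE on GRCm38, matched on gene ID for 288 of 288 genes. The size rule was tested on simulated data. TMM scaling used edgeR 4.0.16, as an alternative only. Some genes that meet these rules are not reported here.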

Additional observations from a re-analysis of the deposited data

How the results depend on the processing

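The ratio of the members' shares stayed between 0.257 and 0.326 in all 8 alternatives run. The number of genes past the size rule depended on the choices. Against 9 higher and 25 lower, it was 5 and 8 with at least 2 Lhx6 UMIs, 5 and 10 with members thinned to 2300 UMIs, and 18 and 40 with a minimum of 20 UMIs. It was 17 higher with doublets removed, and 16 lower both with at most 5% mitochondrial UMIs and with a minimum of 100 UMIs. Of the 17 genes higher with doublets removed, 7 were among the main 9. The share of members with Sst, 31.9% and 42.9%, was 41.9% and 68.3% at 4500 UMIs (124 and 63 members left), 18.1% and 28.6% for at least 3 UMIs, and 37.7% in the wild type without thinning. The 21 genes of the Sst split became 34 with at least 3 against 0 Sst UMIs, 9 after thinning and 13 with a minimum of 100 UMIs. Thinning and stricter gates leave fewer UMIs and fewer measured genes; the causes of the other shifts were not tested. Over the 21 named genes no finite value turned its direction. Thinning took 15 below the rule and left Eomes with no finite ratio. With at least 2 Lhx6 UMIs the log2 ratio of Sst went from 0.71 to -0.02 and that of Maf from 0.11 to -0.12 (0.00 with doublets removed), and that of Nxph1 went from 0.00 to 0.09 when thinned. TMM scaling gave 9 genes higher and 24 lower. The alternative without 4 members rich in globins and that without cells with Mki67 or Top2a were chosen after seeing the data. No paired analysis was possible because the pooled matrices carry no replicate numbers. The members' depth limits genes under 50 UMIs, the SHH targets among them.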
